A study of Homo sapiens with 22 samples.

Results

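Polyamine synthesis and breakdown was followed through 10 genes, ODC1, AMD1, SRM, SMS, SAT1, SMOX, PAOX, OAZ1, OAZ2 and AZIN1, which were found by gene symbol among the 20411 genes listed. RNA-seq of 2 human acute myeloid leukemia (AML) cell lines, MOLM-13 and NB4, both labelled WT, was used, with 3 libraries from cells given the vehicle DMSO and 3 from cells given 2 μM FP54 for 48 hours in each line. FP54 is a degrader that takes the m6A demethylase FTO to the proteasome, so its target is a protein and not an mRNA. MOLM-13 is an established line with a KMT2A rearrangement, and NB4 is an established promyelocytic line with the PML-RARA fusion. The m6A-seq and polysome-seq samples, 10 of the 22 in the labels, were not analysed here. Levels are RPKM, the read count of a gene scaled by its length and by the reads of the library. Differences between FP54 and DMSO are log2 fold changes of log2(RPKM + 0.1) from limma, and a gene was tested in a line where its RPKM averaged 1 or more over the 6 libraries. A gene was called, and is said to have risen or fallen, where its p was below 0.01 and its log2 fold change was −0.5 or lower or 0.5 or higher, the cutoff of the study's methods, and Benjamini-Hochberg adjusted p-values over all genes tested are given beside it. Of the 10 genes, 9 passed the level filter in each line, and PAOX passed in neither.

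Polyamines are small, positively charged molecules that bind nucleic acids and that growing cells make in large amounts. Ornithine decarboxylase (ODC1) makes putrescine from ornithine, and spermidine synthase (SRM) and spermine synthase (SMS) then extend it to spermidine and spermine with aminopropyl groups from S-adenosylmethionine that AMD1 has decarboxylated. In breakdown, SAT1 acetylates spermidine and spermine, PAOX oxidizes the acetylated forms, and SMOX oxidizes spermine directly. Antizymes (OAZ1 and OAZ2) bind the ODC1 protein, lead it to the proteasome and reduce polyamine uptake, and the antizyme inhibitor AZIN1, a relative of ODC1 without its catalytic activity, binds antizymes in its place. Much of this control acts on protein, through a polyamine-dependent frameshift in antizyme mRNA and through upstream reading frames, which RNA levels do not report.

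Sequences of 2 kinds of element linked to control of this pathway are shown, E-boxes, at which MYC-family factors act, and the antizyme frameshift. Other controls, such as the upstream reading frames, are not shown. The E-box searched was CACGTG, which reads the same on both strands, in the RefSeq promoter windows of GRCh38.p14, from 250 bases before to 50 bases after a transcript start. These windows were found for 7 of the 10 genes, ODC1, AMD1, SRM, SMS, SAT1, OAZ1 and OAZ2, and the motif was in those of SRM and ODC1. Over all genes with a window, 8.77% of 27305 genes and 7.26% of 35116 windows held it, and a match is a description of letters, not of binding. In SRM it starts 199 bases before the transcript start, on the minus strand at chr1:11060149-11060268, with the motif in capitals.
SRM promoter: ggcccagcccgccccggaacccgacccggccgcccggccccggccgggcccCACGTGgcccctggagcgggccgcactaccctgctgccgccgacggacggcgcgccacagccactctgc
In ODC1 a pair of motifs lies in the first intron, on the minus strand at chr2:10448001-10448120, and within the window of the second of its RefSeq starts.
ODC1 first intron: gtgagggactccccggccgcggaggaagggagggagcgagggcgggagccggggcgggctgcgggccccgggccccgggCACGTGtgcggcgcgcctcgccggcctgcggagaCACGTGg
The antizyme frameshift sites were read from hg38 in coding exons, at chr19:2271419-2271467 on the plus strand for OAZ1 and chr15:64691491-64691539 on the minus strand for OAZ2. The capitals mark the last codon read in the first frame and the stop codon after it, where the annotated coding sequence skips 1 base.
OAZ1 frameshift site: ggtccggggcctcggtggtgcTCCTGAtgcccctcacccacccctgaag
OAZ2 frameshift site: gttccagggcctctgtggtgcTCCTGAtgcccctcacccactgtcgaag
Both antizymes carry the same TCCTGA, and 42 of the 49 bases are identical. These are DNA letters of the reference, not of the cell lines.

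Library totals recovered from the RPKM lay between 16299700 and 17346913 reads for DMSO and between 5829729 and 19191054 for FP54 in MOLM-13 cells, and between 20654054 and 22344265 for DMSO and between 10595647 and 13071302 for FP54 in NB4 cells. Nothing states that the libraries came from separate cultures, so that p-values measure the spread between these libraries, which may be technical. In MOLM-13 cells DMSO replicate 2 stood apart on the first principal component, at −10.3 against −30.4 and −33.8 for the other DMSO libraries and 16.1 to 39.7 for FP54. FTO mRNA, in RPKM ± SD of 3 libraries, was 1.01 ± 0.0767 (DMSO) and 1.01 ± 0.118 (FP54) in MOLM-13 cells, and 2.73 ± 0.180 and 2.03 ± 0.0782 in NB4 cells. In the DMSO libraries the myeloid gene CD33 was at 30.3 to 33.5 RPKM in MOLM-13 and 12.7 to 13.7 in NB4 cells, and HOXA9, which KMT2A-rearranged leukemia expresses, was at 19.1 to 23.4 and 0.144 to 0.294. MPO, the peroxidase of early granulocytic cells, was at 2036 to 2263 RPKM in NB4 and 12.8 to 18.1 in MOLM-13 cells. The 3 genes chosen to mark NB4 went against the label, at 0.0942 to 0.218 RPKM in NB4 and 154 to 228 in MOLM-13 cells for ELANE, 55.2 to 69.0 and 302 to 508 for PRTN3, and 8.91 to 11.7 and 167 to 186 for AZU1. Of the markers of other blood cells reported here, CD3E, HBB and GNLY stayed below 1 RPKM in every library. The others with FP54 and DMSO in NB4 cells were NKG7 at 75.6 to 82.8 and 30.8 to 54.8 RPKM, CD3D at 10.1 to 10.5 and 5.995 to 6.95, and CD79A at 0.959 to 1.47 and 0.901 to 1.23, and their part in the results was not tested. In MOLM-13 cells NKG7 was at 71.1 to 77.2 RPKM with FP54 and 73.3 to 78.1 with DMSO, and CD3D and CD79A were below 1 RPKM. Genes for olfactory receptors, which these cells should not express, had a mean of 0.00169 to 0.00373 RPKM in the DMSO and 0.0497 to 0.0548 RPKM in the FP54 libraries of NB4, against 0.00387 to 0.00436 and 0.00475 to 0.00833 in MOLM-13 cells, which bears on genes with few reads.

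With FP54, SRM fell in both lines. AMD1 fell and SMOX rose in NB4 cells, and neither was called in MOLM-13 cells. In MOLM-13 cells 1 of the 9 genes tested fell and 0 rose, where 9.04% of all 9710 genes tested fell and 9.3% rose. At an unadjusted limma p below 0.05, 1 gene was higher there (SAT1) and 2 were lower (SRM and AMD1), beside 17.6% and 17.4% of all genes tested. In NB4 cells 2 of 9 fell and 1 rose, where 10.7% of all 9853 genes tested fell and 18.6% rose. The median log2 fold change of the 9 was −0.19 in MOLM-13 and 0.11 in NB4 cells, against medians of 0.00 and 0.07 over all genes tested. At an adjusted p below 0.05 alone, 1 of 9 passed in MOLM-13 (SRM) and 5 of 9 in NB4 cells (SRM, AMD1, SMOX, SAT1 and AZIN1), beside 19.2% and 51.8% of all genes tested, so that the NB4 count is near the background. The 3 DMSO and 3 FP54 libraries did not overlap for 2 of 9 in MOLM-13 and 6 of 9 in NB4 cells, beside 37.1% and 60.5% of all genes tested. The NB4 values depend on the scaling. Median-ratio scaling moved the median of all genes there from 0.07 to −0.13 and the calls from 1050 lower and 1834 higher to 2008 and 1184, and quantile normalization gave 1363 and 1280. Relative to the median of all genes, SRM was at −0.94, AMD1 at −0.90 and SMOX at 1.01 in NB4 cells.

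**Figure D1:**
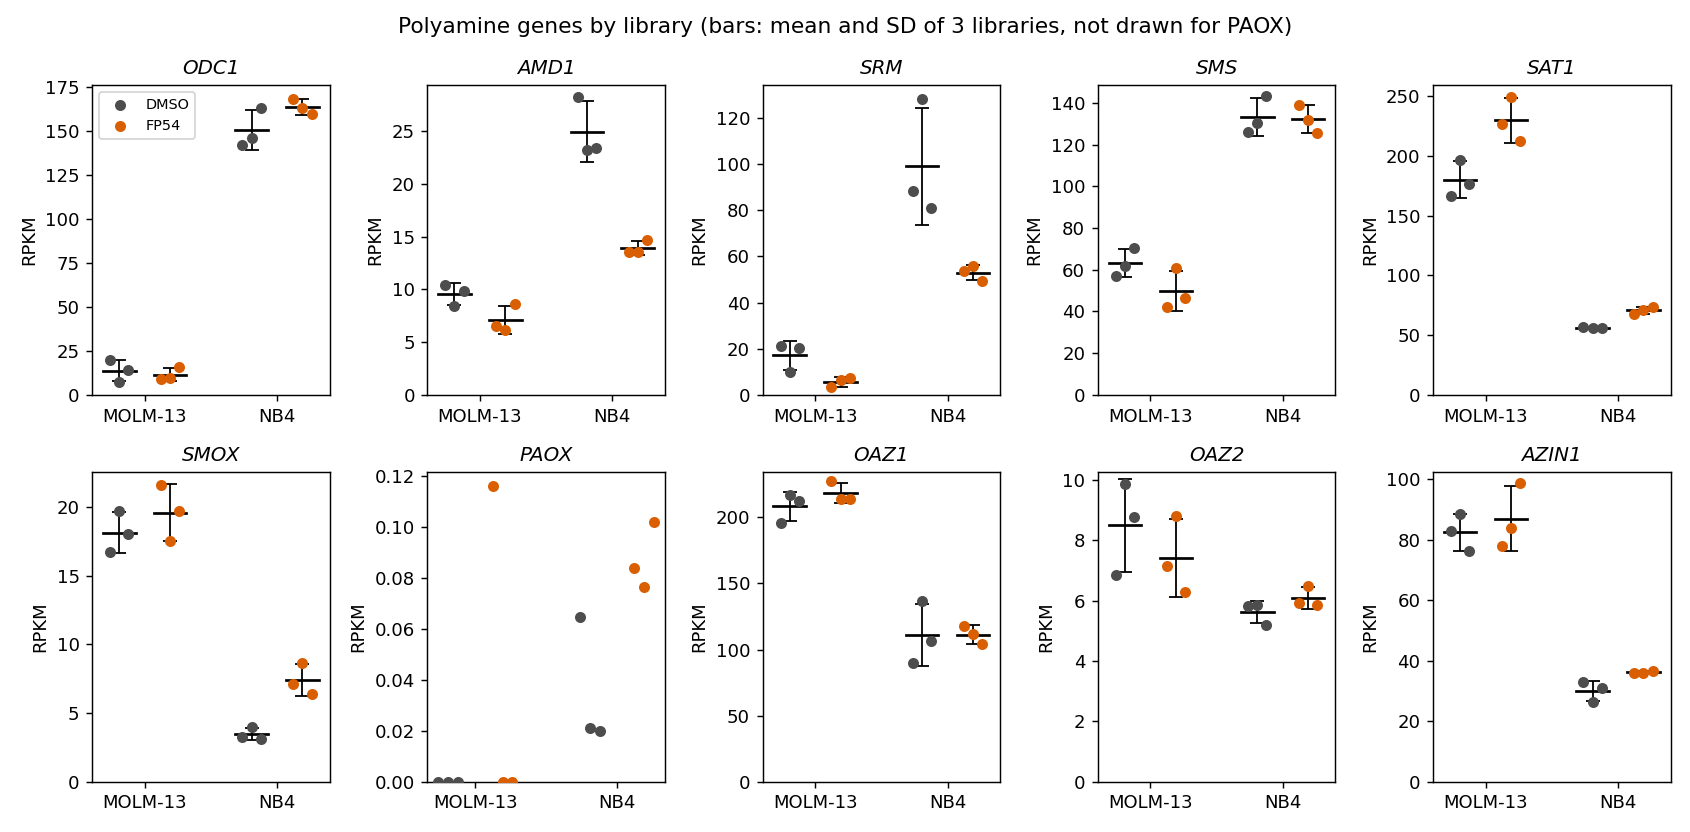
RPKM of the 10 polyamine genes in each library, with a panel per gene on its own linear axis from 0, DMSO in gray and FP54 in orange, MOLM-13 on the left and NB4 on the right of each panel. Lines and bars give the mean and SD of 3 libraries and are left out for PAOX, which had 0 to 5 reads a library. SRM is lower with FP54 in both lines, AMD1 without overlap in NB4 cells, and SMOX is at 3.11 to 3.95 RPKM with DMSO and 6.39 to 8.66 with FP54 in NB4 cells.

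ODC1, on chromosome 2 (hg38 10439968-10448327, minus strand), makes putrescine and is the step at which the pathway is mainly held. In MOLM-13 cells it was at 19.6, 7.42 and 14.4 RPKM with DMSO and 8.82, 9.86 and 16.0 with FP54. The groups overlapped, and the lowest library of the 6 was DMSO replicate 2. The log2 fold change was −0.20 (SE 0.33, limma adjusted p = 0.705), with a 95% interval from −0.92 to 0.53. ODC1 in NB4 cells was at 142, 146 and 163 RPKM with DMSO and 168, 163 and 159 with FP54. These also overlapped, with a log2 fold change of 0.12 (SE 0.08, limma adjusted p = 0.238) and an interval from −0.06 to 0.30. The NB4 value was −0.078 with median-ratio scaling (limma adjusted p = 0.548) and 0.34 with quantile normalization (limma adjusted p = 0.00434).

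AMD1, on chromosome 6 (110874770-110898879, plus strand), supplies the aminopropyl groups for both spermidine and spermine. Its level in NB4 cells was 28.2, 23.2 and 23.4 RPKM with DMSO and 13.6, 13.5 and 14.7 with FP54. Every FP54 library was below every DMSO library, and the mean went from 24.9 ± 2.87 to 13.9 ± 0.679 RPKM (SD, n = 3), which is 55.8% of the DMSO level. The log2 fold change was −0.83 (SE 0.10, limma adjusted p = 7.14e-05). In MOLM-13 cells AMD1 was at 10.4, 8.38 and 9.88 RPKM with DMSO and 6.52, 6.19 and 8.60 with FP54. The groups overlapped through FP54 replicate 3 and DMSO replicate 2, and the log2 fold change of −0.43 (SE 0.17, limma adjusted p = 0.10) was not called. Without FP54 replicate 3 it was −0.58 (limma adjusted p = 0.0467) and was called. Without DMSO replicate 2 it was −0.52 (limma adjusted p = 0.0641) and was not called. The annotation holds 5 pseudogenes named after AMD1, with which it could share reads.

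SRM, on chromosome 1 (11054584-11060020, minus strand), joins an aminopropyl group to putrescine to give spermidine. The MOLM-13 libraries were at 21.2, 9.78 and 20.5 RPKM with DMSO and 3.27, 6.34 and 7.51 with FP54. All FP54 libraries were below all DMSO libraries, although DMSO replicate 2 lay closer to the FP54 libraries than to the other DMSO libraries. The mean went from 17.2 ± 6.39 to 5.71 ± 2.19 RPKM (SD, n = 3), 33.3% of the DMSO level, with a log2 fold change of −1.57 (SE 0.34, limma adjusted p = 0.0138). It ranged from −1.93 without DMSO replicate 2 to −1.22 without FP54 replicate 1 and was called without each library in turn. The limma adjusted p was not below 0.05 without FP54 replicate 1 (0.0603) or without DMSO replicate 3 (0.05002). With no filter on low values SRM was not called (limma adjusted p = 0.172). The read counts of SRM were 302 to 674 with DMSO and 70 to 171 with FP54. In NB4 cells SRM was at 88.2, 128 and 80.9 RPKM with DMSO and 53.6, 55.9 and 49.4 with FP54. The DMSO libraries spread widely because replicate 2 was high, but all lay above the FP54 libraries. The mean went from 99.1 ± 25.4 to 53.0 ± 3.31 RPKM (SD, n = 3), 53.5% of the DMSO level, and the log2 fold change was −0.87 (SE 0.15, limma adjusted p = 0.000712). The annotation holds 3 pseudogenes named after SRM.

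SMS, on the X chromosome (21940709-21994837, plus strand), makes spermine from spermidine. The MOLM-13 level was 57.0, 61.7 and 70.3 RPKM with DMSO and 42.1, 60.7 and 46.6 with FP54. FP54 replicate 2, the library with the fewest reads, lay within the DMSO values, and the log2 fold change was −0.35 (SE 0.16, limma adjusted p = 0.155). Without that library it was −0.50 (limma adjusted p = 0.0378) and was called. In NB4 cells SMS was at 126, 130 and 143 RPKM with DMSO and 139, 132 and 126 with FP54. The libraries were interleaved, and the log2 fold change of −0.01 had a 95% interval from −0.20 to 0.17. Within NB4 libraries the ratio of SRM to SMS level was 0.749 ± 0.213 (SD, n = 3) with DMSO and 0.401 ± 0.0209 with FP54, without overlap. In MOLM-13 cells the ratio was 0.274 ± 0.107 and 0.114 ± 0.0426. There the groups overlapped through DMSO replicate 2 (0.159) and FP54 replicate 3 (0.161).

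SAT1, on the X chromosome (23783173-23786210, plus strand), is the acetyltransferase that starts breakdown and export, and its span overlaps another protein-coding gene on the same strand. In MOLM-13 cells it was at 167, 197 and 176 RPKM with DMSO and 227, 249 and 213 with FP54. The NB4 libraries held 56.9, 56.2 and 55.8 RPKM with DMSO and 68.0, 70.9 and 73.5 with FP54. In both lines every FP54 library was above every DMSO library, and the FP54 mean was 128% of the DMSO mean in MOLM-13 and 126% in NB4 cells. Neither reached the fold of the call, at log2 fold changes of 0.35 (SE 0.14, limma adjusted p = 0.0936) and 0.33 (SE 0.07, limma adjusted p = 0.00402). In NB4 cells it was 0.13 with median-ratio scaling (limma adjusted p = 0.225) and 0.49 with quantile normalization (limma adjusted p = 0.000241).

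SMOX, on chromosome 20 (4120980-4187747, plus strand), oxidizes spermine to spermidine and releases hydrogen peroxide. The NB4 level was 3.27, 3.95 and 3.11 RPKM with DMSO and 7.14, 8.66 and 6.39 with FP54. The groups lay well apart, and the mean went from 3.45 ± 0.445 to 7.40 ± 1.16 RPKM (SD, n = 3), 215% of the DMSO level. The log2 fold change was 1.08 (SE 0.14, limma adjusted p = 0.000107), from 199 to 248 reads a library with DMSO and 223 to 297 with FP54. In MOLM-13 cells SMOX was at 16.7, 19.7 and 18.02 RPKM with DMSO and 21.6, 17.5 and 19.7 with FP54. These overlapped, with a log2 fold change of 0.11 (SE 0.14, limma adjusted p = 0.621) and a 95% interval from −0.20 to 0.42.

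PAOX, on chromosome 10 (133379261-133391694, plus strand), oxidizes acetylated polyamines, and few reads were counted on it. Its span overlaps another protein-coding gene on the same strand, and the part of that overlap in the count was not tested. In MOLM-13 cells it had 0 reads in all DMSO libraries and 5, 0 and 0 reads with FP54. A count of 0 allows up to 3 reads, which is 0.0769 to 0.0818 RPKM in the DMSO libraries and up to 0.229 RPKM in FP54 replicate 2, for counting error only. In NB4 cells it had 3, 1 and 1 reads with DMSO and 2, 2 and 3 with FP54. As RPKM these are 0.0646, 0.0209 and 0.0199 against 0.0839, 0.0764 and 0.102, which do not overlap although the reads do, the FP54 libraries holding fewer reads in all. No fold is given at this depth.

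OAZ1, on chromosome 19 (2269509-2273490, plus strand), is the main antizyme. OAZ1 in MOLM-13 cells was at 196, 217 and 212 RPKM with DMSO and 228, 214 and 214 with FP54. Its NB4 level was 89.6, 137 and 107 RPKM with DMSO and 118, 112 and 104 with FP54. The groups overlapped in both lines, with log2 fold changes of 0.07 (SE 0.13) and 0.03 (SE 0.13) and limma adjusted p-values of 0.730 and 0.887. Its span overlaps JSRP1 on the other strand and another protein-coding gene on its own strand, and the strand setting of the counting is not given in the sources used here.

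OAZ2, on chromosome 15 (64687573-64703281, minus strand), is the second antizyme and was far less abundant. It was at 6.83, 9.88 and 8.75 RPKM with DMSO and 7.13, 8.81 and 6.29 with FP54 in MOLM-13 cells, which overlapped. The NB4 libraries were at 5.82, 5.84 and 5.19 RPKM with DMSO and 5.91, 6.50 and 5.84 with FP54. There the lowest FP54 library lay just above the highest DMSO library, but the log2 fold change of 0.11 (SE 0.10, limma adjusted p = 0.365) was not called.

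AZIN1 (hg38, minus strand) spares ODC1 by binding antizyme, and its span overlaps another protein-coding gene on the same strand. In MOLM-13 cells it was at 82.7, 88.5 and 76.3 RPKM with DMSO and 78.0, 83.9 and 98.8 with FP54, which overlapped, with a log2 fold change of 0.07 (SE 0.14, limma adjusted p = 0.749). AZIN1 in NB4 cells was at 32.8, 26.4 and 31.0 RPKM with DMSO and 35.9, 36.0 and 36.5 with FP54. All FP54 libraries were above all DMSO libraries, at 120% of the DMSO mean, and the log2 fold change was 0.27 (SE 0.09, limma adjusted p = 0.0339), which was not called. It was 0.07 with median-ratio scaling (limma adjusted p = 0.546) and 0.37 with quantile normalization (limma adjusted p = 0.00601).

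**Figure D2:**
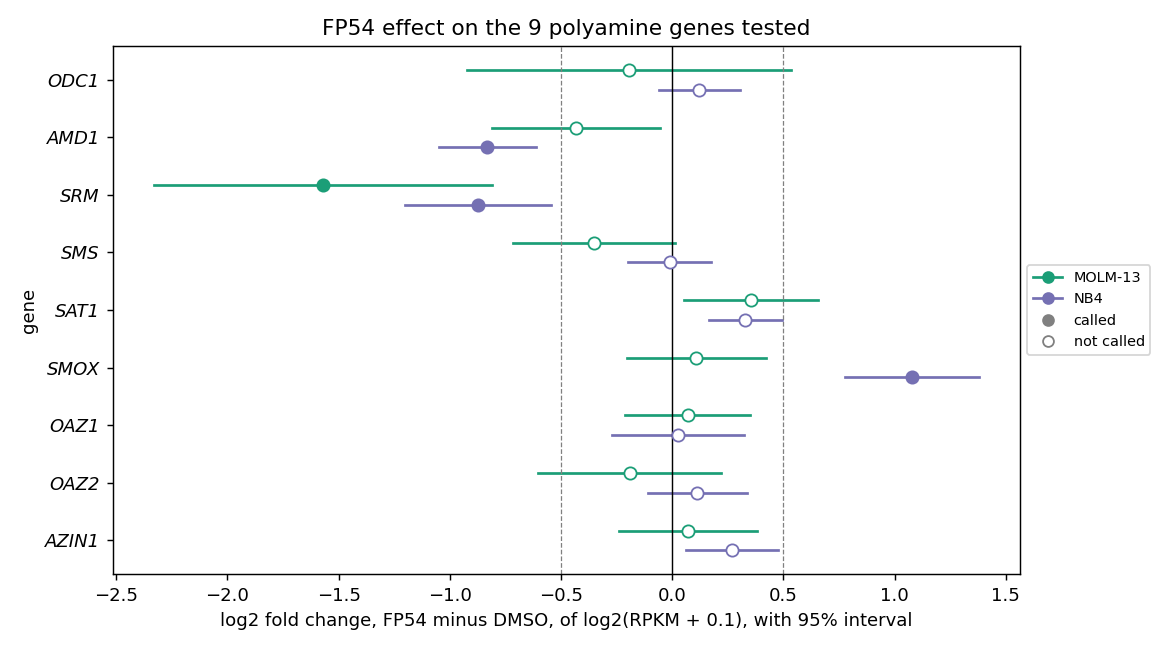
Log2 fold change with FP54 of the 9 polyamine genes tested, with 95% intervals, MOLM-13 in green and NB4 in purple, filled where the gene was called, and dashed lines at −0.5 and 0.5. SRM is filled in both lines, AMD1 and SMOX are filled in NB4 cells, and the MOLM-13 intervals of ODC1 and SRM are the widest.

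Whether the response differed between the lines was tested with an interaction term, in a single limma model of all 12 libraries. Of the 9 genes, 1 differed at an adjusted p below 0.05, where 14.2% of the 8849 genes tested in both lines did. Over all genes, 332 of these differences were lower and 926 higher in NB4 cells, which became 834 and 630 with median-ratio scaling. This was SMOX, whose log2 fold change was 0.97 higher in NB4 than in MOLM-13 cells (SE 0.20, limma adjusted p = 0.00468). AMD1, called in NB4 cells alone, was not shown to differ, at −0.40 (SE 0.20, limma adjusted p = 0.205), but it did with median-ratio scaling, at −0.57 (limma adjusted p = 0.0352). For SRM the difference of 0.70 (SE 0.43, limma adjusted p = 0.303) became 1.26 (limma adjusted p = 0.0361) when DMSO replicate 2 was left out of both lines. For SAT1 the difference was −0.02 (SE 0.15, limma adjusted p = 0.935).

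The lines also held the pathway at different levels in the DMSO libraries. The 2 tables were scaled separately, so the levels are set side by side with no test. Without FP54 the mean RPKM of all 4 synthesis genes was higher in NB4 cells, 10.9 times for ODC1, 5.78 times for SRM, 2.61 times for AMD1 and 2.11 times for SMS. The other 5 genes tested, of breakdown and control, were higher in MOLM-13 cells, 5.27 times for SMOX, 3.19 times for SAT1, 2.74 times for AZIN1, 1.88 times for OAZ1 and 1.51 times for OAZ2. For none of the 9 did the DMSO libraries of the lines overlap, beside 76.4% of the 8849 genes tested in both lines without overlap. Ranked within each table, ODC1 was above 97.8% of the genes tested in NB4 and above 69.7% in MOLM-13 cells, and SMOX above 26.8% and 76.3%. The ratio of ODC1 to OAZ1 level within a library was 1.395 ± 0.283 (SD, n = 3) in NB4 and 0.0674 ± 0.0329 in MOLM-13 cells with DMSO, and 1.47 ± 0.0541 and 0.0532 ± 0.0190 with FP54.

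Within a line, the DMSO levels of the genes were ordered as follows. In MOLM-13 cells OAZ1 and SAT1 were highest with overlapping ranges, followed by AZIN1 and then SMS, each apart from its neighbours. SMOX, SRM, ODC1, AMD1 and OAZ2 came next, each overlapping the one after it, and PAOX was last. In NB4 cells ODC1, SMS, OAZ1 and SRM led, each overlapping the one after it, followed by SAT1, by AZIN1 and AMD1, whose ranges overlapped, and then by OAZ2, SMOX and PAOX, each apart from the one before it.

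**Figure D3:**
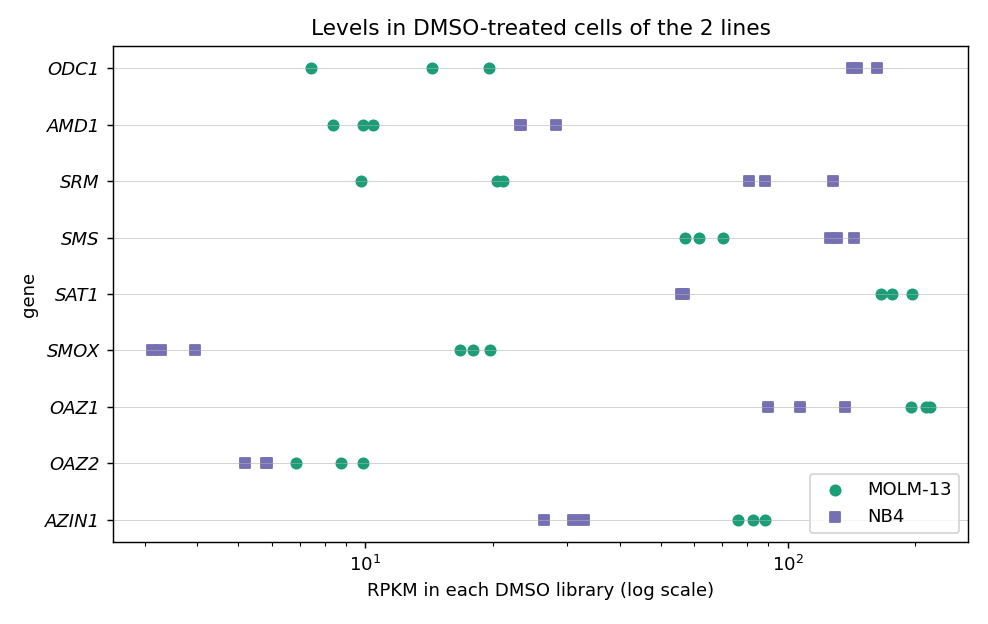
RPKM of the 9 polyamine genes tested in the 3 DMSO libraries of each line, on a log axis, MOLM-13 as green circles and NB4 as purple squares. The 4 synthesis genes lie further right in NB4 cells and the other 5 further right in MOLM-13 cells, with no overlap between the lines.

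The rest of the pathway was counted over 31 genes in 6 lists. In MOLM-13 cells 17 were tested, of which 4 fell and 2 rose, with a median log2 fold change of −0.17. In NB4 cells 16 were tested, of which 3 fell and 1 rose, with a median of −0.12, and 8 were called with median-ratio scaling. The shares over all genes tested are those given above for each direction. EIF5A and SAT2 were called in both lines, in the same direction. With quantile normalization SAT2 (log2 fold change 0.44, limma adjusted p = 0.0529) and MAT2A (−0.42, limma adjusted p = 0.00265) were not called in NB4 cells, and SAT2 was not called there with no filter on low values (limma adjusted p = 0.0464). Between the lines, 3 of the 14 genes tested in both differed by the interaction, AOC1, ADI1 and MAT2B. Of all 8849 genes tested in both lines, 14.2% did. For MAT2B the difference was −0.51 (SE 0.16, limma adjusted p = 0.0478), just below the cutoff of 0.05.

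In the list for hypusination of eIF5A, the modification of a translation factor that uses spermidine as its substrate, 2 of 3 tested genes fell in MOLM-13 and 1 of 4 in NB4 cells. EIF5A, the factor itself, was at 61.0, 38.2 and 56.1 RPKM with DMSO and 27.9, 30.9 and 34.7 with FP54 in MOLM-13 cells, with a log2 fold change of −0.71 (SE 0.18, limma adjusted p = 0.0267). The NB4 libraries were at 114, 144 and 136 RPKM with DMSO and 82.8, 81.3 and 70.7 with FP54, with a log2 fold change of −0.74 (SE 0.11, limma adjusted p = 0.000237). The groups did not overlap in either line, and DMSO replicate 2 was again the lowest DMSO library in MOLM-13 cells. DOHH, the hydroxylase of the last hypusination step, fell in MOLM-13 cells from 5.15 ± 1.07 to 3.14 ± 0.0728 RPKM (SD, n = 3, log2 fold change −0.67, limma adjusted p = 0.0310). In NB4 cells it was at 5.09 ± 0.476 and 3.86 ± 0.288 RPKM (log2 fold change −0.39, limma adjusted p = 0.0144), below the fold of the call. DOHH was called there with median-ratio scaling and with quantile normalization. Its difference between the lines was 0.29 (SE 0.21, limma adjusted p = 0.402).

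In the supply lists, ARG2, an arginase that gives ornithine, was the 1 of 3 tested genes of its list that fell in MOLM-13 cells. It went from 2.14 ± 0.185 to 0.950 ± 0.371 RPKM (SD, n = 3, log2 fold change −1.16, limma adjusted p = 0.0193). In NB4 cells ARG2 was at 0.646 ± 0.0554 RPKM with DMSO and 0.837 ± 0.277 with FP54, and was not tested. The 2 genes of the list tested there were AGMAT and OAT. Of these, 0 were called by limma, with 0 at an unadjusted p below 0.05. Of the S-adenosylmethionine supply genes, 1 of 2 tested fell in NB4 and 0 of 2 in MOLM-13 cells. MAT2A, the catalytic subunit of methionine adenosyltransferase, was at 198, 186 and 170 RPKM with DMSO and 116, 119 and 115 with FP54 in NB4 cells (log2 fold change −0.66, SE 0.08, limma adjusted p = 9.94e-05). In MOLM-13 cells MAT2A was at 56.5, 27.04 and 46.2 RPKM with DMSO and 22.4, 22.9 and 36.3 with FP54 (log2 fold change −0.64, limma adjusted p = 0.122). The groups overlapped through DMSO replicate 2 and FP54 replicate 3, and MAT2A was called when either of these libraries was left out.

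In methylthioadenosine salvage, which recycles the by-product of SRM and SMS, 1 of 5 tested genes fell in MOLM-13 and 1 of 4 in NB4 cells, and they were different genes. MTAP, the phosphorylase that opens the route, fell in MOLM-13 cells from 2.00 ± 0.529 to 0.925 ± 0.218 RPKM (SD, n = 3, log2 fold change −1.02, limma adjusted p = 0.0249). In NB4 cells it was close to absent, with 2, 1 and 1 reads with DMSO and 18, 2 and 0 with FP54, and was not tested. ADI1, a dioxygenase further along, fell in NB4 cells from 19.8 ± 1.58 to 13.5 ± 1.18 RPKM (log2 fold change −0.54, limma adjusted p = 0.00111), and was at 10.2 ± 0.253 and 12.4 ± 0.280 RPKM in MOLM-13 cells (log2 fold change 0.28, limma adjusted p = 0.154). The difference between the lines was −0.82 (SE 0.15, limma adjusted p = 0.00213).

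Of the other family members and oxidases, 2 of 2 tested rose in MOLM-13 and 1 of 2 in NB4 cells. SAT2, named as a relative of SAT1, rose in MOLM-13 cells from 22.9 ± 2.77 to 40.8 ± 8.82 RPKM (SD, n = 3, log2 fold change 0.82, limma adjusted p = 0.0128). In NB4 cells SAT2 rose from 1.92 ± 0.392 to 3.28 ± 0.637 RPKM (log2 fold change 0.74, limma adjusted p = 0.00459). The NB4 reads of SAT2, 60, 83 and 60 with DMSO and 69, 61 and 58 with FP54, overlapped, the FP54 libraries holding fewer reads in all. AOC1, a diamine oxidase that acts on putrescine and histamine, was at 4.18, 3.31 and 3.91 RPKM with DMSO and 9.72, 10.3 and 9.003 with FP54 in MOLM-13 cells (log2 fold change 1.33, SE 0.15, limma adjusted p = 0.00159). In NB4 cells it was at 3.80 ± 0.190 and 3.65 ± 0.557 RPKM, which overlapped, and the difference between the lines was −1.39 (SE 0.20, limma adjusted p = 0.000252). Among the polyamine transporters 2 of 9 were tested in each line and 0 were called. Their unadjusted p was below 0.05 for 1 gene in MOLM-13 (ATP13A3) and 1 in NB4 cells (ATP13A2), both lower, beside 17.4% and 24.7% of all genes tested, and named here after their values were seen. ATP13A2 in NB4 cells (log2 fold change −0.42, limma adjusted p = 0.0244) was called with median-ratio scaling and with quantile normalization. ATP13A3 in MOLM-13 cells was called without FP54 replicate 3.

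**Figure D4:**
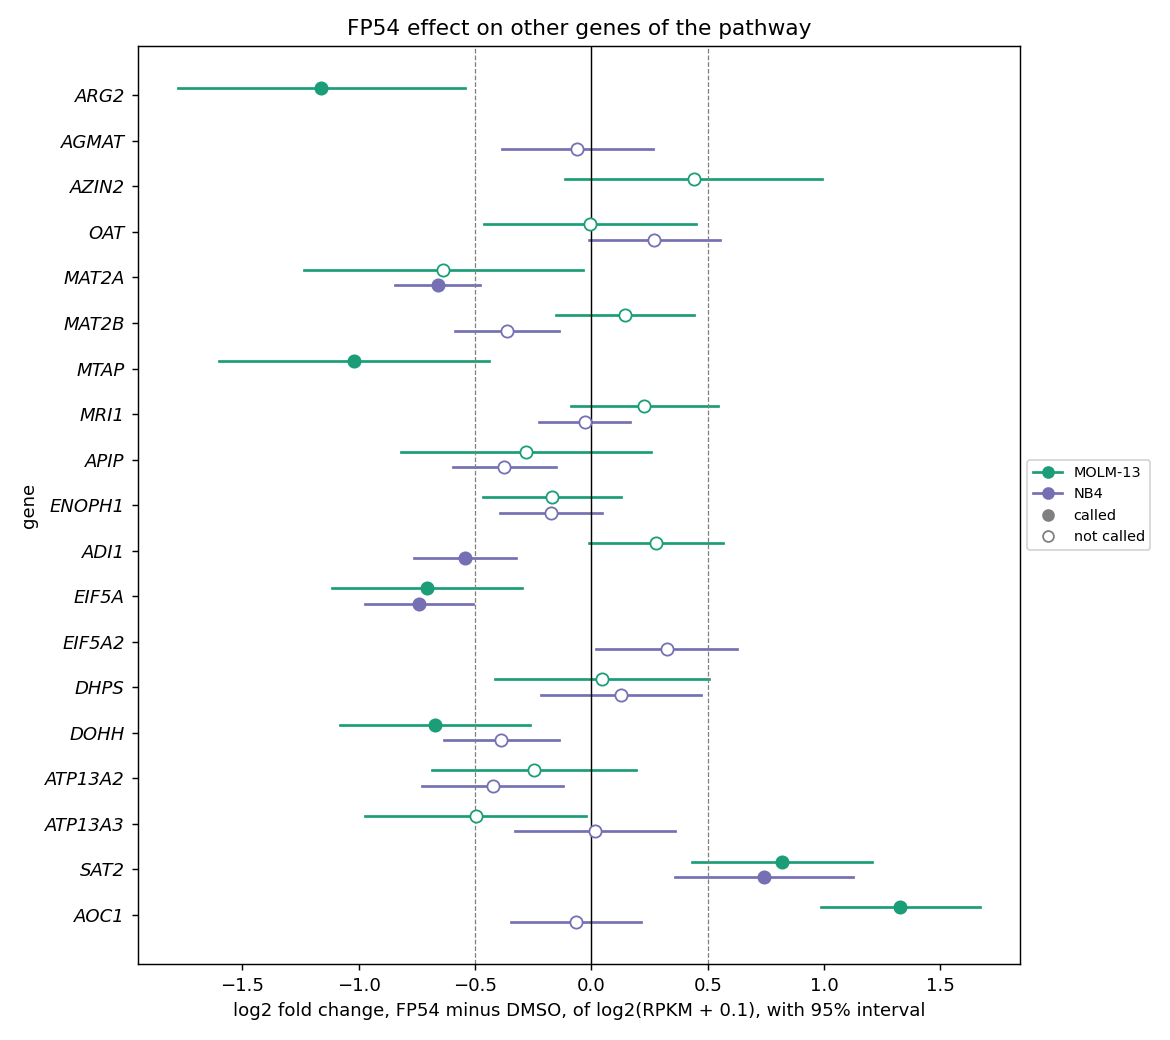
Log2 fold change with FP54 of the pathway genes tested in either line, with 95% intervals, MOLM-13 in green and NB4 in purple, filled where called, and dashed lines at −0.5 and 0.5. EIF5A and SAT2 are filled in both lines, while AOC1 lies at 1.33 in MOLM-13 and near 0 in NB4 cells.

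Some calls in the pathway lists were lost when a library was left out, with folds of the same direction. Others were gained in MOLM-13 cells, MAT2A without DMSO replicate 2 or without FP54 replicate 3, and ATP13A3 without FP54 replicate 3. Without DMSO replicate 1, without DMSO replicate 3 or without FP54 replicate 1, 3 of the 6 calls remained in MOLM-13 cells (AOC1, ARG2 and SAT2), and EIF5A, DOHH and MTAP were not called. DOHH was also not called without FP54 replicate 2 or without FP54 replicate 3, so that it was called in 1 of 6 such fits. Over these fits the log2 fold change was −0.91 to −0.57 for EIF5A, −0.84 to −0.54 for DOHH and −1.25 to −0.84 for MTAP. In NB4 cells ADI1 was not called without DMSO replicate 3 or without FP54 replicate 3, at log2 fold changes of −0.61 to −0.48 over the 6 fits, and the other 3 genes were called without each library in turn.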

How the data were processed

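MOLM-13 and NB4 cells were profiled by poly(A)-selected RNA-seq. According to the methods and the submitters' processing notes, reads were trimmed with cutadapt 4.8, freed of duplicates, aligned to hg38 with STAR 2.7.11b and counted on protein-coding genes with featureCounts 2.0.3. The authors deposited RPKM, 1 table per cell line, scaled separately. Treatment and replicate number were read from the columns, and the cell line of the NB4 table from its name. RPKM multiplied by GENCODE 44 exon lengths, found for 19919 of 20411 genes, gave whole reads (tolerance 0.02) for 98.1 to 98.9% of low values. Limma 3.58.1 in R 4.3.3 was run on log2(RPKM + 0.1) within each line, with a trend in eBayes and over genes that averaged 1 RPKM or more. Adjusted p-values are Benjamini-Hochberg over all genes tested. The script was tested on simulated data. An exact permutation test of 3 against 3 cannot go below 0.1. The members, the pathway lists, the markers and the alternatives were chosen with earlier results of these data known. All members are named, and of each list the genes called in either line, at most 4. MAT2B and the transporters were named after their values were seen. Alternatives were pseudocounts of 1 and 0.01, other filters, median-ratio and quantile scaling, other cutoffs, other eBayes settings, limma-voom on the recovered reads, a replicate block and leaving out each library. Subtracting the olfactory receptor level was added after seeing the data. RefSeq windows were searched for CACGTG. Some of the marker genes are not reported here.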

Additional observations from a re-analysis of the deposited data

Results flagged for a closer look

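The FP54 effect on SMOX differed between the cell lines by the test of the difference itself. Its log2 fold change was 0.97 higher in NB4 than in MOLM-13 cells (limma adjusted p = 0.00468), with SMOX at 3.45 ± 0.445 and 7.40 ± 1.16 RPKM (DMSO and FP54, SD, n = 3) in NB4 and 18.2 ± 1.503 and 19.6 ± 2.05 RPKM in MOLM-13 cells. Groups of 3 libraries were not tested for single libraries far from the rest.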

How the results depend on the processing

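Each of the 9 polyamine genes had 18 alternatives in each line, of which 1 changed only the cutoff. In NB4 cells SRM (−1.07 to −0.67), AMD1 (−1.03 to −0.74) and SMOX (0.88 to 1.18) were called under all 18. In MOLM-13 cells SRM was called under 17, and no filter on low values left 0 of the polyamine genes called. Leaving out 1 library left 1 to 2 of them called in MOLM-13 and 3 in NB4. An adjusted p below 0.05 at any fold gave 5 of 9 in NB4 cells, beside 51.8% of all genes. Of the pathway lists, no filter gave 2 calls, a mean RPKM of at least 5 gave 3, and leaving out 1 library gave 3 to 7 in MOLM-13 cells, against 6. In NB4 cells, against 4, no filter gave 10, median-ratio scaling 8, an adjusted p at any fold 8, and leaving out 1 library 3 to 4. Genes differing between the lines numbered 2 with median-ratio scaling and 1 to 2 with a library left out of both lines. Some uncalled values changed sign. In NB4 cells median-ratio scaling gave −0.078 for ODC1, −0.17 for OAZ1 and −0.082 for OAZ2, and quantile normalization 0.19 for SMS and −0.033 for OAZ2. Under quantile normalization ODC1 (0.34) and OAZ1 (0.25) kept their sign. Leaving out 1 library gave −0.59 to 0.11 for ODC1 and −0.024 to 0.15 for AZIN1 in MOLM-13 cells, and −0.052 to 0.042 for SMS and −0.12 to 0.19 for OAZ1 in NB4 cells. The cause of these changes was not tested. Deviations of same-numbered libraries had correlations of −0.26 to −0.06 in MOLM-13 and −0.14 to 0.12 in NB4 cells. Deviations were taken from the mean of 3 libraries per treatment, which forces some correlations to be positive and others negative. These values therefore cannot decide whether the numbers pair the libraries. In MOLM-13 cells each DMSO library deviated most like an FP54 library of another number (0.47 to 0.59), as did 2 of 3 in NB4 cells, and no other pairing was fitted. With a replicate block 1 polyamine gene was called in MOLM-13 and 3 in NB4 cells, as were 6 and 4 pathway genes, and 1 gene differed between the lines. Subtracting the olfactory receptor level, chosen after seeing the data, kept SRM in MOLM-13 and AMD1, SMOX and SRM in NB4 cells called. Limma-voom on the recovered reads called 941 genes lower and 1008 higher in MOLM-13 and 1046 and 1870 in NB4 cells, with the same polyamine genes, and DOHH was not called by it in MOLM-13 cells. PAOX, and MTAP in NB4 cells, had too few reads for a test.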
